A study of Mus musculus with 14 samples.

Results

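The mitochondrial ribosomal proteins are described here in the ventricles of mice that lacked the chemokine gene Ccl24 and of wild type mice. Members were the genes whose symbol begins with Mrpl or Mrps followed by a digit, without the copies marked -ps: 78 of the 54532 genes counted, 49 Mrpl and 29 Mrps, on 17 chromosomes. Polyadenylated RNA of ventricular tissue was sequenced 1 week after surgery, which was transverse aortic constriction (TAC, a narrowing of the aorta that raises the pressure load on the left ventricle) or a sham operation. The 14 libraries comprise 4 of knockout TAC hearts (numbered 1, 2, 4 and 5), 6 of wild type TAC hearts (numbered 1, 2, 3, 4, 6 and 7), 2 of knockout sham hearts and 2 of wild type sham hearts. The counts of libraries equal the mice per group in the study's description, and each library was taken as 1 mouse. How the knockout allele was made, and the strain, age and sex of the mice, are not stated in the labels.

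Mitochondria carry their own ribosome, with a small subunit that reads the mRNA and a large subunit that joins amino acids. It makes the few respiratory chain and ATP synthase proteins that mitochondrial DNA encodes. The ribosomal RNAs come from mitochondrial DNA, while every protein of the particle is encoded in the nucleus, made in the cytosol and imported. Some of these proteins descend from the bacterial ribosome and others are found only in mitochondria. The heart, rich in mitochondria, expresses them at a high level.

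On average, knockout hearts held more mRNA of the mitochondrial ribosomal proteins than wild type hearts after TAC. The same direction was seen after sham surgery, with 2 libraries per genotype and without passing the test for single genes. After TAC 29 of 76 members tested were higher in the knockout, against 3.71% of all genes. Lower were 0 members, against 5.63% of all genes, and the median log2 fold change was 0.27. With single libraries left out, the number higher ran from 3 to 59. Against sham, with 2 libraries per genotype, TAC had 1 member higher and 1 lower in wild type. Over all genes 6.36% were higher and 5.8% lower there. In the knockout 0 members were called, against 2.36% of all genes higher and 1.73% lower. Without wild type TAC replicate 1, whose label is questioned below, 1 member was higher and 6 lower in wild type. Over all 15880 genes of that fit 1469 were higher and 1287 lower. Mrps17, which lies near Ccl24 on chromosome 5, showed the largest difference between genotypes and is kept out of these counts.

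Total counts were 17072262 to 33123052 per library. Levels are CPM, counts divided by the library's scaled total, with trimmed-mean (TMM) scaling, and 3 counts corresponded to 0.0899 to 0.172 CPM. The ventricles held all 12 cardiomyocyte markers, together 60223 to 92378 CPM, against 3.37 to 12.9 CPM for 3 atrial genes. Ccl24 had 3 to 8 counts in the 6 knockout libraries, against 56 to 105 in wild type TAC replicates 2, 3, 4, 6 and 7 and 61 and 72 in wild type sham. The wild type TAC library numbered 1, written here as the library labelled WT TAC 1, had 3 Ccl24 counts, a level seen otherwise in knockout libraries, and so its genotype label and its Ccl24 level disagree. It stayed in its labelled group, and the results that rest on it are also given without it.

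Of the 78 members, 77 passed the filter on low counts, and the lowest count of any of them in a library was 209 (Mrps18c). Mrpl53 had 0 counts in all 14 libraries. In the GENCODE annotation of the mouse build GRCm38, 88.0% of its exon bases are also exon of the same-strand gene Gm42688, which itself had 4 to 32 counts per library, and why Mrpl53 has no counts was not tested. A further 32 members also shared exon bases with another gene, and 28 members did so on the opposite strand. The labels do not state whether the counting used strand, so the counts of Mrps25 (69.8% of exon bases shared with Nr2c2), Mrps34 (63.4% shared with Mapk8ip3) and Mrpl19 (36.0% shared with Gcfc2) are among the most exposed.

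The members differed widely in level. Per kilobase of the principal mRNA, mean levels over the 14 libraries were highest for Mrpl42 (325 CPM per kb), Mrpl30 (157), Mrpl12 (135) and Mrps21 (133). They were lowest among the members tested for Mrpl19 (5.48 CPM per kb), Mrps5 (6.06), Mrpl17 (6.14) and Mrps25 (6.21). The proteins of the particle are present in equal numbers in textbook structures (Mrpl12 apart), while their mRNA levels per length spanned this range. Lengths are those of the annotation and were not measured in the heart.

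The question put to knockout against wild type after TAC is whether hearts without Ccl24 differ under pressure load. Summed over the 76 members, mRNA stood at 4684, 4398, 4690 and 4633 CPM in knockout TAC replicates 1, 2, 4 and 5. In wild type TAC it stood at 3398 CPM in the lowest library and 4641 CPM in the highest, which is the library labelled WT TAC 1. The other 5 wild type TAC libraries, at 3398 to 3924 CPM, lay below every knockout TAC library, while that one lay among them. The means ± SD were 4601 ± 138 CPM over the 4 knockout TAC libraries and 3837 ± 433 CPM over the 6 of wild type TAC. In sham hearts the sums were 4322 and 4938 CPM in the knockout, against 3896 and 4006 CPM in wild type. The groups did not overlap there either, but with 2 libraries against 2 this is common. Of 15876 single genes, the sham groups were apart with the knockout higher at 4225 and lower at 4182. Of the 76 members they were apart with the knockout higher at 57 and lower at 5, a difference from all genes that was not tested.

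**Figure D1:**
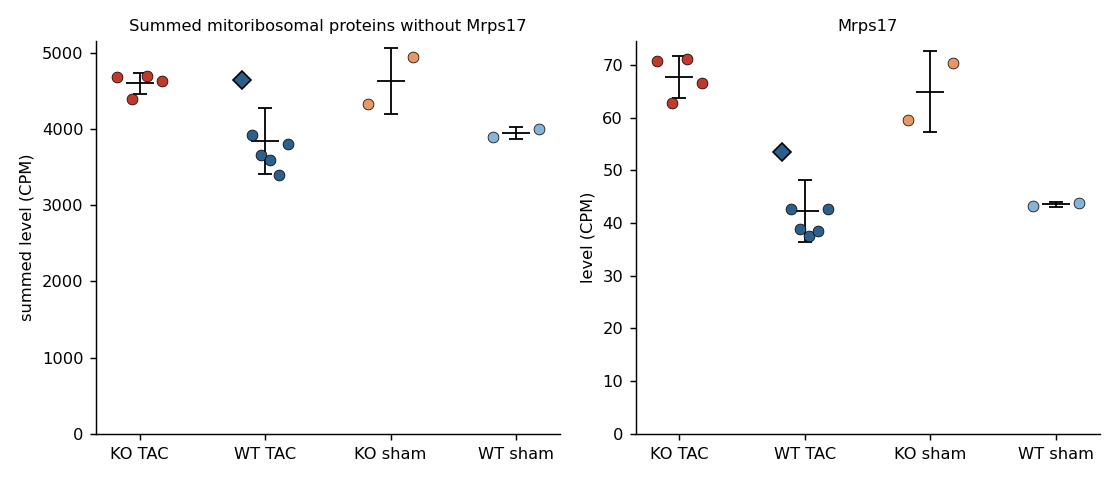
Summed level of 76 mitochondrial ribosomal protein mRNAs (left, CPM) and level of Mrps17 (right, CPM) in each library, by group; circles are libraries, the diamond is the library labelled WT TAC 1, and the dash and bar are mean and SD. In knockout TAC the sums lie at 4398 to 4690 CPM, above all wild type TAC libraries other than the diamond, and every knockout library lies above every wild type library at Mrps17.

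The test was edgeR's quasi-likelihood test on all 15876 genes that passed the filter, with Benjamini-Hochberg adjustment over them. The threshold was an adjusted p of 0.05, and "higher" or "lower" as a call means past it. Among all genes 3.71% were higher and 5.63% lower in knockout TAC than in wild type TAC, and their median log2 fold change was -0.01. Of the 76 members 29 were higher and 0 lower, 72 had a positive log2 fold change, and 58 had an unadjusted p under 0.05. The members were measured in the same libraries and are not replicates of one another, so these counts are a description and not 76 separate results. In bulk tissue, fewer cells of a type and less RNA per cell cannot be told apart.

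The library labelled WT TAC 1 lowered these counts. Without it 59 of 76 members were higher and 0 lower, the earlier 29 among them, against 8.5% of all genes higher, and the median was 0.33. Every knockout TAC library lay above every wild type TAC library at 12 of 76 members, against 2.44% of all genes, and at 54 of 76 without that library, against 6.81% of all genes. That library lay above all other wild type TAC libraries at 67 of 76 members, against 21.5% of all genes. It lay at or above the lowest knockout TAC library at 62 of 76 members, which is near the share over all genes, 82.7%. The count also depended on other single libraries: leaving out replicate 2, 4 or 5 of knockout TAC gave 11, 5 or 3, leaving out replicate 3, 4 or 6 of wild type TAC gave 9, 10 or 11, and leaving out either wild type sham library gave 16. Over all genes the share called higher in these 8 fits was 0.498% to 2.47%. Whichever library was left out, 71 to 73 members were positive.

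Calls were found in both subunits. In the small subunit 13 of 25 members were higher (median log2 fold change 0.33), and in the large subunit 15 of 50 (median 0.25); the difference between subunits was not tested. Without the library labelled WT TAC 1 the counts were 20 of 25 and 38 of 50. By origin, 10 of 16 small-subunit and 7 of 31 large-subunit proteins with a bacterial relative were higher, and 3 of 9 and 8 of 19 proteins found only in mitochondria. Mrps30 and Mrps18a, named for the small subunit, are built into the large one and are counted there. Mrps36, now placed in the oxoglutarate dehydrogenase complex of the citric acid cycle and not in the ribosome, also carries the name and was higher (log2 fold change 0.33, SE 0.10, adjusted p = 0.049).

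**Figure D2:**
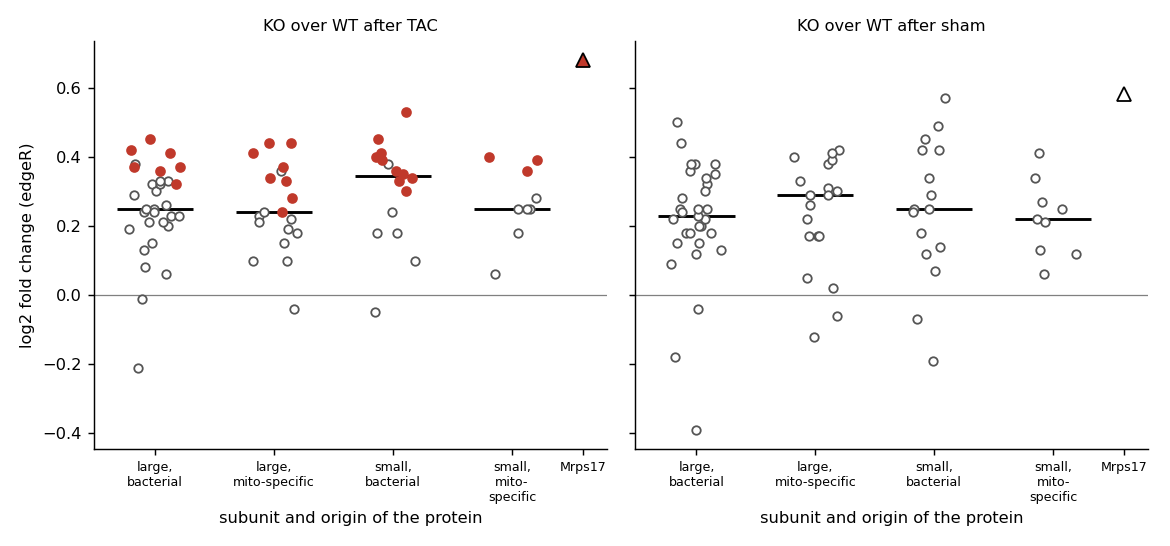
Log2 fold change of knockout over wild type for each member after TAC (left) and after sham surgery (right), by subunit and origin of the protein; filled red points passed an adjusted p of 0.05, open points did not, bars are medians, and the triangle is Mrps17 (Mrps36 and Mrpl53 are not drawn). With Mrps36 counted, 72 of 76 members had a positive value after TAC and 69 of 76 after sham, but only the left panel holds filled points.

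In the small subunit, Mrps24 (the mitochondrial counterpart of bacterial S3, at the entry of the mRNA channel; chr11:5703983-5715680, minus strand, GRCm38) had 45.7, 46.9, 52.1 and 50.2 CPM in knockout TAC. Wild type TAC libraries had 31.2 CPM at the lowest, 37.3 at the median and 40.7 at the highest. No library of one group reached the range of the other, and the log2 fold change was 0.40 (SE 0.08, adjusted p = 0.0085). Mrps14, a protein of the head of the small subunit (chr1:160195215-160202170, plus strand), had 62.7, 61.2, 69.5 and 66.4 CPM in knockout TAC, against a lowest, median and highest value of 45.2, 47.9 and 55.5 CPM in wild type TAC. Its groups were also apart (log2 fold change 0.39, SE 0.09, adjusted p = 0.015).

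Mrps16, the counterpart of bacterial S16 (chr14:20389304-20393634, minus strand), had 61.0, 59.7, 65.5 and 64.8 CPM in knockout TAC, against 37.9, 47.1 and 57.4 CPM (lowest, median, highest) in wild type TAC. The gap between the groups was small because the library labelled WT TAC 1 held the 57.4 CPM; the log2 fold change was 0.41 (SE 0.10, adjusted p = 0.019). Mrps18b, one of 3 related genes for S18-like proteins (chr17:35910379-35916389, minus strand), had 27.4, 30.7, 24.7 and 29.1 CPM in knockout TAC, against 19.0, 22 and 24.4 CPM in wild type TAC. Here the groups nearly touched (0.36, SE 0.09, adjusted p = 0.02). Of its relatives, Mrps18a had a log2 fold change of 0.21 (adjusted p = 0.061) and Mrps18c of 0.38 (adjusted p = 0.055), and neither passed.

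Mrps28 (chr3:8802146-8923918, minus strand) had the largest difference after Mrps17, with 43.4, 42.5, 50.5 and 48.5 CPM in knockout TAC, against 26.6, 29.5 and 45.0 CPM in wild type TAC. The groups overlapped at this gene, again because of the library labelled WT TAC 1 (45.0 CPM). The log2 fold change was 0.53 (SE 0.13, adjusted p = 0.021), and 0.65 (SE 0.09, adjusted p = 0.00032) without that library.

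In the large subunit, Mrps30 (chr13:118378381-118387252, minus strand) had 37.2, 34.0, 38.8 and 40.4 CPM in knockout TAC, against 25.8, 26.9 and 33.0 CPM in wild type TAC. The groups were just apart (log2 fold change 0.44, SE 0.09, adjusted p = 0.0091). Mrpl38, a protein found only in mitochondrial ribosomes (chr11:116131817-116138868, minus strand), had 83.2, 77, 74.6 and 78.2 CPM in knockout TAC, against 55.5, 58.4 and 73.5 CPM in wild type TAC. The groups did not overlap (0.37, SE 0.08, adjusted p = 0.015). Mrpl19, a bacterial-type protein (chr6:81957851-81965958, minus strand), had 35.5, 29.6, 29.8 and 31.7 CPM in knockout TAC, against 18.9, 22.7 and 29.2 CPM in wild type TAC, and its groups were just apart (0.45, SE 0.10, adjusted p = 0.017).

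Mrpl32, which in yeast must be cut by the inner-membrane m-AAA protease before it can be assembled (chr13:14608184-14613165, minus strand), had 29.7, 28.3, 30.3 and 29.9 CPM in knockout TAC. In wild type TAC it had 20.3, 22.2 and 27.6 CPM, below every knockout TAC library (0.37, SE 0.09, adjusted p = 0.023). Mrpl12, part of the stalk that recruits translation factors and in human cells also a partner of the mitochondrial RNA polymerase (chr11:120484613-120489065, plus strand), averaged 206 ± 7.1 CPM (SD) over the 4 knockout TAC libraries and 161 ± 22 CPM over the 6 of wild type TAC. Its log2 fold change was 0.36 (SE 0.09, adjusted p = 0.027). Among these 10 genes, named for their small p, all log2 fold changes were larger without the library labelled WT TAC 1, at 0.40 (Mrps18b) to 0.65 (Mrps28). Without knockout TAC replicate 5, 8 of the 10 no longer passed, with adjusted p of 0.053 to 0.086, and Mrps24 and Mrps30 still did.

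**Figure D3:**
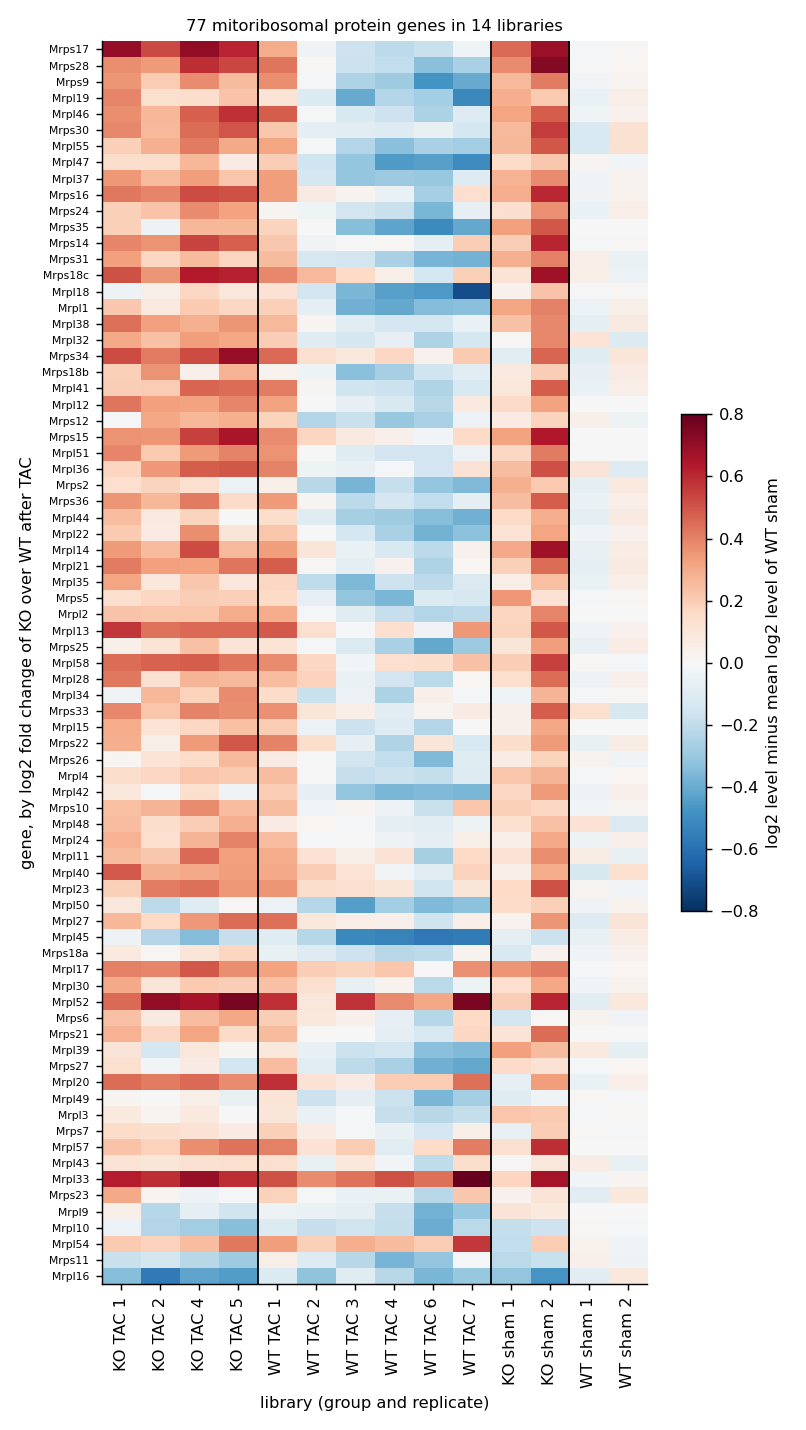
Level of each of the 77 members tested in each library, as log2 level minus the mean log2 level of the wild type sham libraries (color), with genes ordered from the highest to the lowest log2 fold change of knockout over wild type after TAC. Most rows are red in knockout libraries and in the library labelled WT TAC 1, and pale or blue in the other wild type TAC libraries. Mrpl33 is red in all TAC libraries, and Mrpl52 in all of them except wild type TAC replicate 2, where it is pale.

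The 4 members without a positive fold change were Mrpl16, Mrps11, Mrpl54 and Mrpl10. Mrpl16, a core protein of the large subunit close to the site of peptide bond formation in bacteria, had 30.5, 26.1, 28.9 and 28.4 CPM in knockout TAC, against 30.0, 32.3 and 36.2 CPM in wild type TAC. Its groups overlapped and the difference did not pass (-0.21, SE 0.08, adjusted p = 0.089). After sham surgery it had 31.1 and 27.9 CPM in the knockout, against 36.5 and 40.9 CPM in wild type (-0.39, SE 0.12, unadjusted p = 0.0045, adjusted p = 0.26). Mrps11, Mrpl54 and Mrpl10 had log2 fold changes of -0.05, -0.04 and -0.01 after TAC.

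Mrps17, the counterpart of bacterial S17 in the small subunit (chr5:129715497-129722556, plus strand, GRCm38), lies 5.85 Mb from Ccl24 (chr5:135569937-135573049, minus strand). It had 70.8, 62.7, 71.1 and 66.5 CPM in knockout TAC, against 37.6, 40.7 and 53.4 CPM in wild type TAC. In sham hearts it had 59.5 and 70.4 CPM in the knockout, against 43.2 and 43.9 CPM in wild type. Every knockout library lay above every wild type library, and the library labelled WT TAC 1, at 53.4 CPM, lay between the genotypes. The log2 fold change was 0.68 after TAC (SE 0.09, adjusted p = 0.00096), and 0.76 (SE 0.07, adjusted p = 1.7e-05) when that library was left out.

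After sham surgery Mrps17 differed by 0.58 (SE 0.15, adjusted p = 0.16), and it passed when the library labelled WT TAC 1 was left out (0.58, adjusted p = 0.03). Whether its place near the deleted gene bears on its level was not tested. The other 3 members on chromosome 5 lie farther away: after TAC Mrps18c (34.8 Mb) differed by 0.38, Mrpl1 (39.3 Mb) by 0.37 (adjusted p = 0.038) and Mrpl33 (104 Mb) by 0.08. The 73 other members tested lie on other chromosomes.

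Knockout against wild type after sham asks whether the genotypes differ without a pressure load. With 2 libraries against 2, edgeR called 0 of 76 members, against 0.126% of all genes in either direction, and DESeq2 and limma also called 0. Of the 76, 69 had a positive log2 fold change, with a median of 0.25 (0.01 over all genes), and 24 had an unadjusted p under 0.05. The 3 higher members with the smallest p were Mrpl17 (0.38, SE 0.11), Mrps15 (0.49, SE 0.14) and Mrpl14 (0.50, SE 0.16), all 3 bacterial-type proteins.

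Mrpl17 had 47.3 and 49.5 CPM in knockout sham, against 36.7 and 37.4 CPM in wild type sham. Mrps15 had 48.4 and 60.5 CPM in the knockout, against 38.8 and 38.7 CPM in wild type. At both genes the pairs were apart, while the knockout sham libraries differed from each other more at the second. With 2 libraries against 2 this is common: of 15876 genes, the pairs were apart with the knockout higher at 4225 and lower at 4182. When only the 4 sham libraries entered the fit, 12 members were higher and 1 lower, against 3.4% of all genes higher and 4.45% lower.

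The difference between the responses to TAC in knockout and wild type, the interaction, asks whether the genotype effect depends on the load. edgeR called 0 of 76 members and 0% of all genes, DESeq2 and limma called 0 members, and 0 members had an unadjusted p under 0.05. The median interaction was 0.04 on the log2 scale, with 46 of 76 members positive, and without the library labelled WT TAC 1 it was 0.10, with 64 positive. The number positive was 27 to 68 over the fits that left out 1 library each, so it depended on single libraries. The member with the smallest p, Mrps18a, had an interaction of 0.25 (SE 0.13, unadjusted p = 0.065), and Mrpl45 of 0.33 (SE 0.18, unadjusted p = 0.09). The genotype effects after TAC and after sham, medians of 0.27 and 0.25, were therefore not shown to differ, and a p that misses the threshold does not show that they are equal.

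TAC against sham asks what the pressure load did within a genotype. In the knockout 0 of 76 members were called by edgeR, DESeq2 or limma, against 2.36% of all genes higher and 1.73% lower; the median was 0.01 and 3 members had an unadjusted p under 0.05. Those were Mrps6 (0.29, SE 0.12), Mrps34 (0.33, SE 0.14) and Mrpl39 (-0.26, SE 0.12). In wild type 1 member was higher and 1 lower, against 6.36% of all genes higher and 5.8% lower, with a median of -0.04.

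The higher one was Mrpl33, the counterpart of bacterial L33, which had 33.0, 35.4 and 48.9 CPM (lowest, median, highest) in wild type TAC, against 25 and 25.8 CPM in wild type sham. All TAC libraries lay above both sham libraries (0.55, SE 0.14, adjusted p = 0.025). The lower one was Mrpl45, which anchors the human mitochondrial ribosome to the inner membrane near the exit of the peptide tunnel. It had 51.1, 52.7 and 70.9 CPM in wild type TAC, against 72.7 and 79.2 CPM in wild type sham, with all TAC libraries lower (-0.41, SE 0.12, adjusted p = 0.042). Both calls rest on the same sham pair.

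With total counts as the only scaling 4 members were higher and 0 lower in wild type, against 7.76% of all genes higher and 3.68% lower. Without wild type sham replicate 1 or 2, Mrpl33 kept 0.53 and 0.57 with an adjusted p of 0.21 in both cases, and Mrpl45 had -0.46 and -0.34 with adjusted p of 0.19 and 0.33. Mrpl45 also missed the threshold without any one of 6 other libraries (both knockout sham libraries, knockout TAC replicate 5 and wild type TAC replicates 3, 4 and 6), with adjusted p of 0.054 to 0.061. Without the library labelled WT TAC 1, Mrpl33 was still the 1 higher member and 6 members were lower, against 8.1% of all genes lower. The 6 were Mrpl45 (-0.48), Mrpl18 (-0.41), Mrpl47 (-0.37), Mrpl50 (-0.32), Mrpl1 (-0.30) and Mrps2 (-0.29). The median over members was then -0.11.

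Averaged over both genotypes, 4 members were higher and 1 lower after TAC, against 12.7% of all genes higher and 11.6% lower. The higher ones were Mrpl33 (0.37, SE 0.10, adjusted p = 0.018), Mrpl54 (0.28, SE 0.09, adjusted p = 0.025), Mrpl52 (0.35, SE 0.11, adjusted p = 0.034) and Mrpl20 (0.28, SE 0.09, adjusted p = 0.043). The lower one was Mrpl50 (-0.25, SE 0.07, adjusted p = 0.024). All 5 belong to the large subunit. None of the 5 passed without knockout sham replicate 1 or without either wild type sham library, and when the library labelled WT TAC 1 was left out the counts were 4 higher and 9 lower, against 14.5% of all genes higher and 13.1% lower. With total counts as the only scaling they were 10 higher and 0 lower, against 18.2% and 7.29% of all genes. These shares of members lie below those over all genes.

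Other genes of mitochondrial gene expression, from lists set up beside the members, were counted in the same way. Averaged over genotypes, 12.7% of all genes were higher after TAC and 11.6% lower. Averaged over genotypes, 7 of 30 genes listed for assembly of the ribosome and modification of its RNA were lower and 1 higher. Among them were Mettl17 (-0.46, SE 0.10) and the GTPase Eral1 (-0.29, SE 0.07). Mettl5, also on that list, is not a gene of this ribosome and was kept in the 30. Of 16 translation factors 4 were lower, including the cytochrome oxidase activator Taco1 (-0.68, SE 0.17) and the initiation factor Mtif2 (-0.39, SE 0.11). Of 20 genes that load mitochondrial tRNAs 5 were lower, and of 27 genes that copy, transcribe or stabilize mitochondrial nucleic acids 9 were lower, such as the helicase Twnk (-0.40, SE 0.09). Among regulators of mitochondrial genes 6 of 11 were lower, led by the coactivator Ppargc1a (-0.86, SE 0.11) and the fatty acid sensor Ppara (-1.32, SE 0.18). When the library labelled WT TAC 1 was left out, 8 of the assembly genes, 6 of the translation factors and 7 of the tRNA-loading genes were lower. So were 13 of the nucleic acid genes and 6 of the regulators, against 13.1% of all genes. The differences between the shares of these lists and that of the ribosomal proteins were not tested.

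Between genotypes after TAC, higher in the knockout were 4 of 30 assembly genes (median 0.13), 1 of 16 translation factors (Rmnd1, 0.50, SE 0.11), 3 of 20 tRNA-loading genes (among them the glutamyl-tRNA synthetase Ears2, 0.58, SE 0.11) and 2 of 27 genes of mitochondrial nucleic acids, where 1 was lower (Ptcd1, -0.53, SE 0.10). Of 11 regulators 0 passed (edgeR; median 0.01; 2 had an unadjusted p under 0.05). The 5 subunits that carry other names, Dap3, Ptcd3, Chchd1, Aurkaip1 and Gadd45gip1, had log2 fold changes of 0.18 to 0.29, 0 passed (edgeR), and 4 had an unadjusted p under 0.05. When the library labelled WT TAC 1 was left out all 5 passed. The numbers higher were then 9 assembly genes, 4 translation factors, 10 tRNA-loading genes and 9 nucleic acid genes. Over all genes 3.71% were higher and 5.63% lower with all libraries, and 8.5% were higher without that one.

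The mRNAs of the nuclear-encoded respiratory chain and ATP synthase subunits differed between genotypes too: after TAC 32 of 82 tested were higher and 0 lower (median 0.34), and after sham the median was 0.39 with 0 called (edgeR; 81 of 82 positive, 56 with an unadjusted p under 0.05). The protein genes of mitochondrial DNA, the mRNAs this ribosome translates, had 2 of 13 higher after TAC (median 0.42). Their median after TAC against sham, averaged over genotypes, was -0.48 with 8 of 13 lower, while the median of the mitochondrial ribosomal proteins was -0.01. For cytosolic ribosomal proteins, between genotypes after TAC 0 of 82 were called (edgeR; median 0.02; 5 had an unadjusted p under 0.05), and averaged over genotypes 31 of 82 were higher after TAC and 1 lower (median 0.24). Leaving out the library labelled WT TAC 1, 69 of 82 were higher between genotypes after TAC for the respiratory chain and ATP synthase. The counts were then 3 of 13 for mitochondrial DNA, and 2 higher and 1 lower of 82 for cytosolic ribosomal proteins. Over all genes 3.71% were higher between genotypes after TAC with all libraries, and 8.5% without that one. Averaged over genotypes, 12.7% of all genes were higher and 11.6% lower after TAC.

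**Figure D4:**
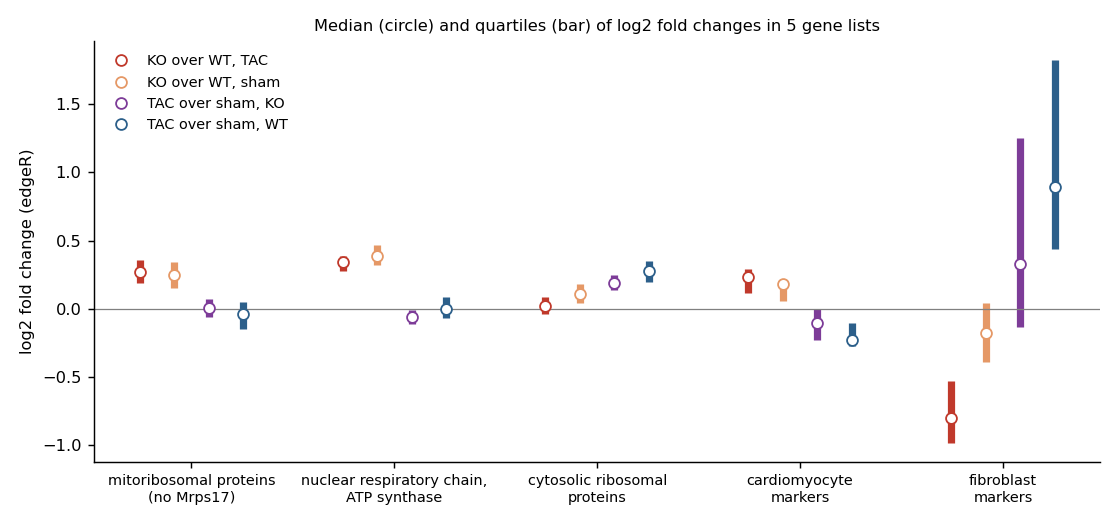
Median (circle) and quartiles (bar) of the log2 fold changes in 5 gene lists for knockout over wild type after TAC and after sham and for TAC over sham in knockout and wild type. The mitochondrial ribosomal proteins lie at 0.27 and 0.25 between genotypes and at 0.01 and -0.04 between surgeries, while cytosolic ribosomal proteins lie near 0 between genotypes after TAC and above 0 between surgeries.

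Markers of cell types moved with the genotype after TAC, a comparison in which 3.71% of all genes were higher and 5.63% lower. The 12 cardiomyocyte markers summed to 76620 to 87804 CPM in knockout TAC, 60223 to 82207 CPM in wild type TAC, 90087 and 92378 CPM in knockout sham and 81326 and 82165 CPM in wild type sham. After TAC 12 of 12 had a positive log2 fold change between genotypes (median 0.23) and 1 passed, Tnni3 (0.49, SE 0.15). The 8 fibroblast markers summed to 2447 to 4010 CPM in knockout TAC, 3296 to 9713 CPM in wild type TAC, 1905 and 2042 CPM in knockout sham and 2076 and 2340 CPM in wild type sham. After TAC 8 of 8 were negative between genotypes (median -0.80) and 4 passed, among them the fibroblast factor Tcf21 (-0.91, SE 0.13).

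The 8 macrophage markers summed to 495 to 668 CPM in knockout TAC, 571 to 1091 CPM in wild type TAC, 447 and 475 CPM in knockout sham and 451 and 477 CPM in wild type sham, and 4 of 8 were lower in the knockout after TAC. No marker of these 3 lists was at 0 in all libraries. All 5 genes of dividing cells, such as Mki67, were higher in the knockout after TAC (median 0.98), with a sum of 61.9 to 114 CPM in knockout TAC, 24.6 to 59.0 CPM in wild type TAC, 13.8 and 16 CPM in knockout sham and 9.26 and 10.8 CPM in wild type sham. Of 6 endothelial markers 1 was higher (Cldn5, 0.88, SE 0.24), and of the atrial, smooth muscle, neutrophil, red cell and skeletal muscle markers tested 0 passed between genotypes after TAC (edgeR), while the 4 red cell genes had a median of 1.07.

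Single libraries show these sums side by side. Knockout TAC replicate 1 had 4010 CPM of fibroblast markers, 87804 CPM of cardiomyocyte markers and 4684 CPM of mitochondrial ribosomal proteins. Wild type TAC replicate 2 had 3615 CPM, 79261 CPM and 3924 CPM of the same 3 sums, and the library labelled WT TAC 1 had 3296 CPM, 82207 CPM and 4641 CPM. After sham surgery, where the fibroblast sums lay at 1905 and 2042 CPM in the knockout and 2340 and 2076 CPM in wild type, 0 of the 8 fibroblast and 0 of the 12 cardiomyocyte markers passed (edgeR; 0 with an unadjusted p under 0.05), with medians of -0.18 and 0.18 beside 0.25 for the ribosomal proteins. Over all genes 0.126% passed after sham in either direction. Without the library labelled WT TAC 1, 8 of 8 fibroblast and 8 of 8 macrophage markers were lower in the knockout after TAC. Of the cardiomyocyte markers 6 of 12 were then higher. In that fit 8.5% of all genes were higher, and 1589 of 15880 were lower. The part of cell composition in the genotype difference was not tested.

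**Figure D5:**
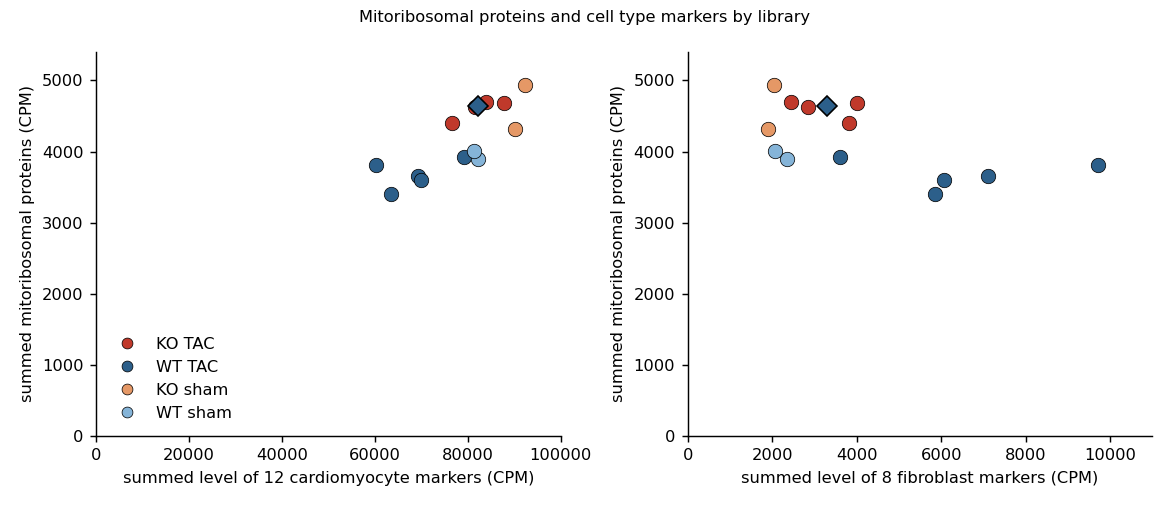
Summed level of the 76 mitochondrial ribosomal protein mRNAs (CPM) against the summed level of 12 cardiomyocyte markers (left, CPM) and 8 fibroblast markers (right, CPM), 1 point per library; the diamond is the library labelled WT TAC 1. The 5 other wild type TAC libraries hold the lowest sums of ribosomal proteins among TAC libraries, 3398 to 3924 CPM, and 4 of them hold the highest sums of fibroblast markers.

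Spread within a group was uneven. Among the 6 wild type TAC libraries the SD of log2 levels was largest for Mrps9 (0.31), Mrpl18 (0.28) and 2 genes at 0.27, Mrps28 and Mrps35. Mrps9, a protein of the small-subunit head, had 95.1, 85.4, 96.5 and 88.7 CPM in knockout TAC, against 53.4, 61.7 and 96.2 CPM in wild type TAC, where the highest value is again that of the library labelled WT TAC 1 and the groups overlap. It passed after TAC all the same (0.45, SE 0.13, adjusted p = 0.045).

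The promoters of the members were searched for short motifs, and 4 are shown by sequence. RefSeq gave a promoter on GRCm38.p6, 250 bases before to 50 bases after the start, for 68 of the 77 members tested. Short matches on either strand were counted for factors known from other work to act on genes of this kind: NRF1 (GCGCATGCG, nearly its own reverse complement, so that 1 site can match on both strands), ETS factors such as GABP (CCGGAAG), YY1 (AAGATGGC), SP factors (GGGCGG) and the TATA box (TATAAA). NRF1 letters were in 10.3% of member promoters, against 3.58% of the 10732 promoters of all coding genes tested. ETS letters were in 35.3% against 17.2%, YY1 letters in 17.6% against 4.45%, SP letters in 50% against 63.2% and TATA letters in 5.88% against 7.29%. Each motif was counted by itself, also where it overlapped another, a match is a description and not a site, and the shares were not tested.

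By call, and with Mrps17 set apart, NRF1 letters were in 2 of 24 promoters of members higher after TAC and in 5 of 43 others, ETS letters in 5 of 24 against 19 of 43, YY1 letters in 5 of 24 against 7 of 43, SP letters in 16 of 24 against 17 of 43, and TATA letters in 2 of 24 against 1 of 43. None of these differences was tested. The first 3 promoters below belong to called members named above and hold such matches; the last, of Mrpl46, is shown because the start of Mrps11 lies 42 bases away on the other strand. Capitals mark NRF1, ETS and YY1 letters, and the sequences run 5′ to 3′ along the strand of the gene.
Mrps24 promoter (chr11:5707652-5707951, minus strand, YY1 letters after the start): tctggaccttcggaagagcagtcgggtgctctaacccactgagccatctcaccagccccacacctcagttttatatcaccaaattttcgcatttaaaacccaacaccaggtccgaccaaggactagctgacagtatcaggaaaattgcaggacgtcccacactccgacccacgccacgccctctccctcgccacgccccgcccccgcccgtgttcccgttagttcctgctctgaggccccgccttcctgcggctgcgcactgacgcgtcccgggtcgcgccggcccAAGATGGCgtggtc
Mrpl32 promoter (chr13:14612988-14613287, minus strand, YY1 letters first and then NRF1 letters at 2 places): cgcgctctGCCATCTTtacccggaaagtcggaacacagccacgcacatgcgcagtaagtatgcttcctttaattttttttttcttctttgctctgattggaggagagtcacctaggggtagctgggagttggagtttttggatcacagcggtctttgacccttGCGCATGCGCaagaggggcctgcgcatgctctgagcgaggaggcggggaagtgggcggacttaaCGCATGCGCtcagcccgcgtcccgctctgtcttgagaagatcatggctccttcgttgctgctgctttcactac
Mrps18b promoter (chr17:35916391-35916690, minus strand, NRF1 letters first and ETS letters last): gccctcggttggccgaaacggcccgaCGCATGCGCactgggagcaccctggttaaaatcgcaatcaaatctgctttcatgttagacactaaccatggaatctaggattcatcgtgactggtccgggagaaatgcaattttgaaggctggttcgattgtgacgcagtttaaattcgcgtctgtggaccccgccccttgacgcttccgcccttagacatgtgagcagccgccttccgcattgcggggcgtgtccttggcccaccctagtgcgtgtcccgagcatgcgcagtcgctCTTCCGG
Mrpl46 promoter (chr7:78783040-78783339, minus strand, no match to NRF1, ETS or YY1): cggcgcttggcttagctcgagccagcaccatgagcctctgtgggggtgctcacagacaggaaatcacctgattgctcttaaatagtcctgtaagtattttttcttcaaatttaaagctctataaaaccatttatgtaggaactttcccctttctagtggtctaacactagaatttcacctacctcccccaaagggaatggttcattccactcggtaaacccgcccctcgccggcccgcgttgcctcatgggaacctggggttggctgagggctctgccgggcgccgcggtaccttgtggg

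The Mrpl46 and Mrps11 starts thus lie back to back, and the fold changes of the pair are given side by side. Mrpl46, of the large subunit, had 41.4, 38.4, 44.5 and 47.9 CPM in knockout TAC, against 26.8, 29.5 and 44.6 CPM in wild type TAC (0.44, SE 0.12, adjusted p = 0.034). Mrps11, of the small subunit, had 22, 22.4, 21.3 and 20.4 CPM in knockout TAC, against 19.2, 22.2 and 25.7 CPM in wild type TAC (-0.05, SE 0.09, adjusted p = 0.72). At the first gene the groups overlapped through the library labelled WT TAC 1 (44.6 CPM), the other 5 lying at or below 31.8 CPM, and at the second they were mixed. In GENCODE the genes share 173 exon bases on opposite strands, 12.2% of those of Mrpl46 and 8.0% of those of Mrps11, and the difference between their fold changes was not tested.

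Close divergent starts were counted over all members. Within 1000 bases, 23 of 68 (33.8%) had the start of a coding gene on the other strand pointing away, against 10.7% of 10732 coding genes tested with a RefSeq start. Of those 23 members 8 were higher in the knockout after TAC, beside 29 of all 76. Of their 21 neighbours that are not themselves members 2 were higher and 0 lower, with a median of 0.18. Over all genes 3.71% were higher and 5.63% lower. The neighbours that passed were Ndufb5 (0.33, SE 0.10, adjusted p = 0.047), a subunit of respiratory complex I beside Mrpl47, and Ppp1r10 (0.80, SE 0.10, adjusted p = 0.00086), a regulator of protein phosphatase 1 beside Mrps18b.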

How the data were processed

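For the 14 libraries the authors deposited raw counts, whole numbers of reads assigned to each gene with no normalization. Per the submitters' processing notes, FastQC, HISAT2 2.1.0, featureCounts and edgeR were used with build GRCm38; their settings, the annotation and the strand setting are not stated. From the counts, genes were filtered with filterByExpr, scaled with TMM and fitted as 4 group means over all 14 libraries with edgeR 4.0.16 (glmQLFit, robust; R 4.3.3), with Benjamini-Hochberg adjustment over 15876 genes at a threshold of 0.05. The SE is the size of the log2 fold change divided by the square root of F. Alternatives were DESeq2 1.42.0, limma 3.58.1 (voom), other scalings, no filter, the compared groups alone, a replicate block and leaving out each library. No pair of libraries of a group agreed within counting noise (chi-square per degree of freedom at least 4.55), and each was taken as 1 replicate. This spread cannot show that the libraries are separate mice. The p-values measure the spread between these samples, and the 3-count floor covers counting error only. Same-numbered libraries did not deviate together (correlations of -0.215 to 0.0603), and the numbers were not taken to pair samples. In a group of 2 libraries the deviations mirror each other, so the sham correlations say little about pairing.

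Coordinates and lengths are from GENCODE M21 and promoters from RefSeq (GRCm38.p6). The members, the gene lists and the subunit of each member were chosen with earlier results of these data known, and subunits were assigned from textbook nomenclature. Companion list symbols without a match in the table were left out. Genes named are Mrps17, Ccl24, the up to 10 members in each direction with the smallest p among those called in a comparison (or, where fewer than 3 passed, the 3 higher and 3 lower with the smallest unadjusted p), the 4 highest and lowest per length, the 3 most variable in wild type TAC, Mrps18a to Mrps18c, and up to 4 per companion list with the smallest p; Mrpl46, Mrps11, Mrps36, Mrps35, Mrpl53 and the neighbours were named after their values were seen, as were the members called when the library labelled WT TAC 1 was left out.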

Additional observations from a re-analysis of the deposited data

Results flagged for a closer look

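In 60 checks of a group for 1 library far from the others, 5 stood out, and chance flags about 1 in 20. The library labelled WT TAC 1 stood above the other wild type TAC libraries at 3 members: 73.5 CPM at Mrpl38 (others 55.5 to 62.2), 53.4 CPM at Mrps17 (others 37.6 to 42.7) and 33.0 CPM at Mrps30 (others 25.8 to 27.3). Wild type TAC replicate 7 stood above the others at 2 members: 48.9 CPM at Mrpl33 (others 33.0 to 36.2) and 76.8 CPM at Mrpl54 (others 59.3 to 65.4).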

How the results depend on the processing

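The direction of the genotype difference was kept in every setting run: 71 to 73 of 76 members were positive after TAC and 64 to 71 after sham with any 1 library left out, and 72 and 65 with total counts as the only scaling. The number called was not. For knockout against wild type after TAC (29) it was 44 with DESeq2 and 15 with the compared groups alone. It was 3 to 59 with 1 library left out. Over all genes 589 were higher in the main fit, 1062 with DESeq2 and 294 with the compared groups alone. With 1 library left out, 0.498% to 8.5% of all genes were higher. For TAC in wild type (2) it was 0 with the compared groups alone and 0 to 7 with 1 library left out. With total counts it was 4 (all higher), and the median of all genes moved to 0.067. Over all genes 1009 were higher and 921 lower in the main fit, and 341 and 395 with the compared groups alone. With total counts 7.76% of all genes were higher and 3.68% lower. Without wild type sham replicate 2, where 0 members were called, 0 were called over all genes. For TAC averaged over genotypes (5) it was 10 (all higher) with total counts and 0 to 13 with 1 library left out. With total counts 18.2% of all genes were higher and 7.29% lower. Where 13 were called, without the library labelled WT TAC 1, the shares over all genes were 14.5% and 13.1%. For knockout against wild type after sham (0) it was 13 with the compared groups alone and 0 with any library left out. With the compared groups alone, 3.4% of all genes were higher and 4.45% lower after sham. For TAC in knockout and the interaction the number of members called was 0 in every setting. With the replicate block, 0 members were called for knockout against wild type after TAC, for TAC in wild type and for TAC averaged. Over all genes the block gave 18 higher and 27 lower, 11 and 11, and 837 and 641, in that order. Mrps17 had 0.62 after TAC with the block (edgeR, adjusted p = 0.082). The block is no test of pairing, and whether the numbers pair the samples was not settled. Mrps17 after sham passed with DESeq2 (0.57), with the compared groups alone (0.58) and in 1 of the settings that leave out a library (0.45 to 0.69); elsewhere it did not. With total counts 1 of the 27 members called for knockout against wild type after TAC, Mrpl16, was lower. The cause of these shifts was not tested. Depth and the number of libraries were not compared as limits; the members tested had at least 209 counts in each library, and each genotype had 2 sham libraries.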
